A study of Mus musculus with 12 samples.

Results

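Pou3f1, Otx2, Foxd3, Sall2, Sox3, Zic2 and Zic5 encode transcription factors of the formative epiblast, the state that mouse pluripotent cells pass through after they leave naive pluripotency and before they commit to a germ layer. These 7 genes were chosen by name as such factors, and all 7 were found among the 47729 genes of the table and passed the filter that left 13981 genes for testing. Messenger RNA had been sequenced from E14Tg2a mouse embryonic stem cells (strain 129/Ola). The delta cells, named delta 0.7 in the labels, lacked a regulatory region of Tcf15 on both alleles (chr2:152177049-152177722), and the WT cells were unedited E14Tg2a cells. Both were sampled at 0 h in N2B27 with 2i and LIF, which holds cells in the naive state, and 12 and 24 h after transfer to fibronectin-coated plates in N2B27 with Activin, bFGF and KOSR. Each of the 6 groups held 2 libraries. Column names point to 1 clone of delta 0.7, which leaves effects of the deletion and of the clone impossible to separate. Nothing in the labels says that replicates came from separate cultures, and p-values thus reflect the spread between these libraries alone, which may be technical.

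In the embryo, implantation turns the naive epiblast into an epithelium that silences naive factors such as Nanog and Klf4 and switches on a new set of regulators. In culture, Activin and FGF drive the same step, and the cells are then called epiblast-like cells. Otx2, a paired-type homeodomain factor, is known to redirect the pluripotency factor Oct4 to new enhancers, Foxd3 is a forkhead factor that opens epiblast enhancers, and Pou3f1 encodes the POU factor Oct6. Zic2 and Zic5 are zinc finger factors related to the GLI proteins, Sox3 is an HMG-box factor of the same subgroup as Sox2, and Sall2 is a zinc finger factor of the spalt family. All 7 are also known for later roles in the nervous system or the neural crest.

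The libraries held 9740758 to 17570996 recovered reads (median 12189804). Levels are in FPKM, fragments per kilobase of exon scaled by library size, and a single read in a gene of 1 kilobase gave 0.0569 to 0.111 FPKM. The stem cell genes Pou5f1, Sox2 and Nanog were present throughout, with Pou5f1 at a mean of 628 FPKM in delta cells and 632 FPKM in WT cells at 24 h. Tcf15 stood at 4.44 and 2.76 FPKM in the delta libraries of 24 h, against 99.4 and 55.4 FPKM in the WT libraries. Libraries differed in ways that the groups do not explain. Mitochondrial genes took 0.447% to 0.647% of reads in replicate 1 and 1.80% to 2.87% in replicate 2. Ribosomal protein genes took 12.6% (delta) and 10.7% (WT) in replicate 1 at 0 h, against 5.41% to 7.03% elsewhere.

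Coordinates here are those of GENCODE M21 (build GRCm38, named mm10 in the submitters' processing notes). Of the 7 genes, 4 lie on chromosome 14: Otx2 (48657677 to 48673819, minus strand), Sall2 (52311172 to 52328762, minus strand), Zic5 (122456795 to 122465677, minus strand) and Zic2 (122475435 to 122479852, plus strand). Foxd3 (99656299 to 99658622) and Pou3f1 (124656807 to 124660655) lie on the plus strand of chromosome 4. Sox3 (60891366 to 60893430) is on the minus strand of chromosome X. Zic2 and Zic5 are a divergent pair whose starts are 9758 bp apart. The sources used here do not give the strand setting of the read counting, so an antisense gene can share reads with its partner. Otx2os1, antisense to Otx2, reached at most 0.389 FPKM. Gm27247, antisense to Pou3f1, reached 4.14 and 3.65 FPKM in delta and 2.21 and 2.08 FPKM in WT at 24 h.

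The 250 bases upstream of the RefSeq gene starts (build GRCm38.p6) are shown because the gene deleted in its regulation, Tcf15, encodes a basic helix-loop-helix factor, a class that binds E-boxes (CANNTG). The promoter table held 8 windows for 4 of the 7 genes, Otx2 (4 windows), Sall2 (2), Foxd3 (1) and Zic5 (1), and none for Pou3f1, Sox3 and Zic2. Below are 5 of the windows, each read 5′ to 3′ on the gene's strand, with E-boxes in capitals. They lie at chr14:48667645-48667894 (Otx2, the most upstream of its starts), chr4:99656049-99656298 (Foxd3), chr14:52328671-52328920 (Sall2, first start), chr14:52316324-52316573 (Sall2, second start) and chr14:122465659-122465908 (Zic5). All are on the minus strand except that of Foxd3.
Otx2, first start: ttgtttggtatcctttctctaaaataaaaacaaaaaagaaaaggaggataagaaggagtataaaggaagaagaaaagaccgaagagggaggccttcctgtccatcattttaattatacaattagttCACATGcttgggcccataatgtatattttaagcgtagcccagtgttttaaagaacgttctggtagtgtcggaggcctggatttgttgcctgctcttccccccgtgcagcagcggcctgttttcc
Foxd3: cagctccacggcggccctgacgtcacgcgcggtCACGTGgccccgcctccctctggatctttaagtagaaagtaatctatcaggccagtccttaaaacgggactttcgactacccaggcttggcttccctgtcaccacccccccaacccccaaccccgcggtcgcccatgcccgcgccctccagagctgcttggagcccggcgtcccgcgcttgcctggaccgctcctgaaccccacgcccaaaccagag
Sall2, first start: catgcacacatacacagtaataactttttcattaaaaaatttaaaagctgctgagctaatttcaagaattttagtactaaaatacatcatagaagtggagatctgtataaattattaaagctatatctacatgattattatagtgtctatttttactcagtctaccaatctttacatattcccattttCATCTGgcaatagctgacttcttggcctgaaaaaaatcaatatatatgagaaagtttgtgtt
Sall2, second start: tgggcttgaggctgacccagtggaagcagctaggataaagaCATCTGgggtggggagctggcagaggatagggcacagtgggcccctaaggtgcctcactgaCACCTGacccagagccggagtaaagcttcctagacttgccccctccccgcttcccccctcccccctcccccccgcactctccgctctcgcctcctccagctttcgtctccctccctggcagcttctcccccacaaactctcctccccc
Zic5: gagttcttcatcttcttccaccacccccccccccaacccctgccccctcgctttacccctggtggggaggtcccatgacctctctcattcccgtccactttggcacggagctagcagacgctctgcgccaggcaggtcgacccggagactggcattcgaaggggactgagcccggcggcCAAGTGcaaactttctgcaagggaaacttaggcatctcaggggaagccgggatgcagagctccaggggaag

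An E-box stood in 7 of the 8 windows, against 66.2% of the 32851 windows of this length in the table. The Foxd3 window held the form CACGTG, present in 6.02% of all windows, and the second Sall2 window held 2 E-boxes of other forms. CACGTG is its own reverse complement and is counted among the E-boxes too. The 2 Sall2 windows differ in composition, with 28% G and C at the first start and 64.4% at the second. Searched on both strands, TAATCC, the core sequence that OTX factors bind, stood in 1 window, at the third start of Otx2 (6.25% of all windows). CCAAT stood in 2 windows (33.9% of all windows) and TATAAA in 2 (12.4%). The octamer ATGCAAAT (1.60% of all windows), the SOX-type ACAAAG (16.5%), the TCF/LEF-type CTTTGA (13.8%), the GC box GGGCGG (32.7%) and the E-box CAGCTG (13%) stood in 0 of the 8. These are matches of letters, and no binding was measured.

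By 24 h all 7 factors had risen in both genotypes. On the log2(FPKM + 1) scale the largest rise was that of Pou3f1 and the smallest were those of Zic5 in delta cells and Foxd3 in WT cells. By the ratio of mean FPKM, Foxd3 rose least in both genotypes. Its ratio was 6.20 in delta and 3.12 in WT, against 6.35 and 5.98 for Zic5. All 7 were called as higher in delta cells at 24 h than at 0 h, where 7.58% of all tested genes were, and all 7 in WT cells, where 5.27% were (limma on log2(FPKM + 1), Benjamini-Hochberg adjusted p under 0.05). In these bulk samples, more cells that express a gene and more RNA per cell cannot be told apart.

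Pou3f1 was nearly silent in naive cells and among the most abundant of the 7 a day later. It stood at 0.232 and 0.281 FPKM at 0 h, 7.94 and 3.96 at 12 h and 85.1 and 89.1 at 24 h in the delta libraries of replicate 1 and 2. In the WT libraries it stood at 0.282 and 0.0997, then 6.93 and 2.60, then 61.8 and 48.2 FPKM. No library of one time overlapped one of another within a genotype, and the 0 h values rest on 8 and 19 reads in delta and 11 and 5 in WT. On the log2 scale with a pseudocount of 1, Pou3f1 rose by 6.13 ± 0.38 (SE) in delta (limma adjusted p = 5.1e-05) and by 5.55 ± 0.38 in WT (adjusted p = 1.3e-04).

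Otx2 was already transcribed in naive cells, at levels that differed widely between libraries. The delta libraries held 6.89 and 0.603 FPKM at 0 h, 38.2 and 23.7 at 12 h and 71.2 and 60.1 at 24 h. The WT values were 4.85 and 1.60, then 29.5 and 10.9, then 50.7 and 34.2 FPKM. Replicate 1 was the higher library in every group, and the times did not overlap. By 24 h Otx2 rose by 4.22 ± 0.73 in delta (limma adjusted p = 0.0050) and by 3.45 ± 0.73 in WT (adjusted p = 0.017). In WT the rise no longer passed when the replicate 2 library of 0 h or either library of 24 h was left out, and its adjusted p reached 0.24 over all alternatives.

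Foxd3 differed from the other 6 in its course. The delta libraries held 10.9 and 14.1 FPKM at 0 h, 75.5 and 67.8 at 12 h and 79.4 and 75.9 at 24 h. The WT libraries held 12.7 and 23.6, then 74.5 and 59.6, then 58.0 and 55.3 FPKM. Both genotypes were near their 24 h level by 12 h, and in WT cells both libraries of 24 h were below both of 12 h. By 24 h Foxd3 rose by 2.55 ± 0.27 in delta (limma adjusted p = 4.2e-04) and by 1.65 ± 0.27 in WT (adjusted p = 0.0051).

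Sall2 and Sox3 started below 1 FPKM and gained most of their FPKM after 12 h. Sall2 stood at 0.944 and 0.901 FPKM at 0 h, 6.32 and 4.39 at 12 h and 24.1 and 24.4 at 24 h in delta cells, and at 0.745 and 0.268, then 4.60 and 1.16, then 16.4 and 9.59 FPKM in WT cells. Sox3 stood at 0.702 and 0.303, then 3.77 and 3.27, then 14.97 and 11.6 FPKM in delta cells, and at 0.717 and 0.112, then 2.78 and 1.84, then 10.4 and 9.78 FPKM in WT cells. Neither gene had overlapping times within a genotype, and the 0 h libraries held few reads of Sox3, 13 and 11 in delta and 15 and 3 in WT. By 24 h Sall2 rose by 3.72 ± 0.42 in delta and 3.19 ± 0.42 in WT (limma adjusted p = 5.8e-04 and 0.0017). Sox3 rose by 3.25 ± 0.26 in delta and 3.01 ± 0.26 in WT (limma adjusted p = 1.1e-04 and 2.4e-04).

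Zic2 and Zic5 moved as a pair. Zic2 stood at 13.7 and 10.4 FPKM at 0 h, 53.7 and 42.5 at 12 h and 86.3 and 81.9 at 24 h in delta cells, and at 13.6 and 5.06, then 52.3 and 24.6, then 72.7 and 59.7 FPKM in WT cells. Zic5 stood at 4.54 and 3.13, then 15.7 and 12.1, then 25.8 and 23.0 FPKM in delta cells, and at 4.91 and 1.65, then 15.1 and 8.17, then 21.6 and 17.6 FPKM in WT cells. The FPKM of Zic2 was 2.77 to 3.57 times that of Zic5 in every one of the 12 libraries, while the level of each changed severalfold, and WT replicate 2 was the lowest library at each time for both. By 24 h Zic2 rose by 2.72 ± 0.43 in delta and 2.83 ± 0.43 in WT (limma adjusted p = 0.0032 and 0.0036). Zic5 rose by 2.40 ± 0.39 in delta and 2.37 ± 0.39 in WT (limma adjusted p = 0.0036 and 0.0052), and its WT call was lost without WT 24 h replicate 1.

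**Figure D1:**
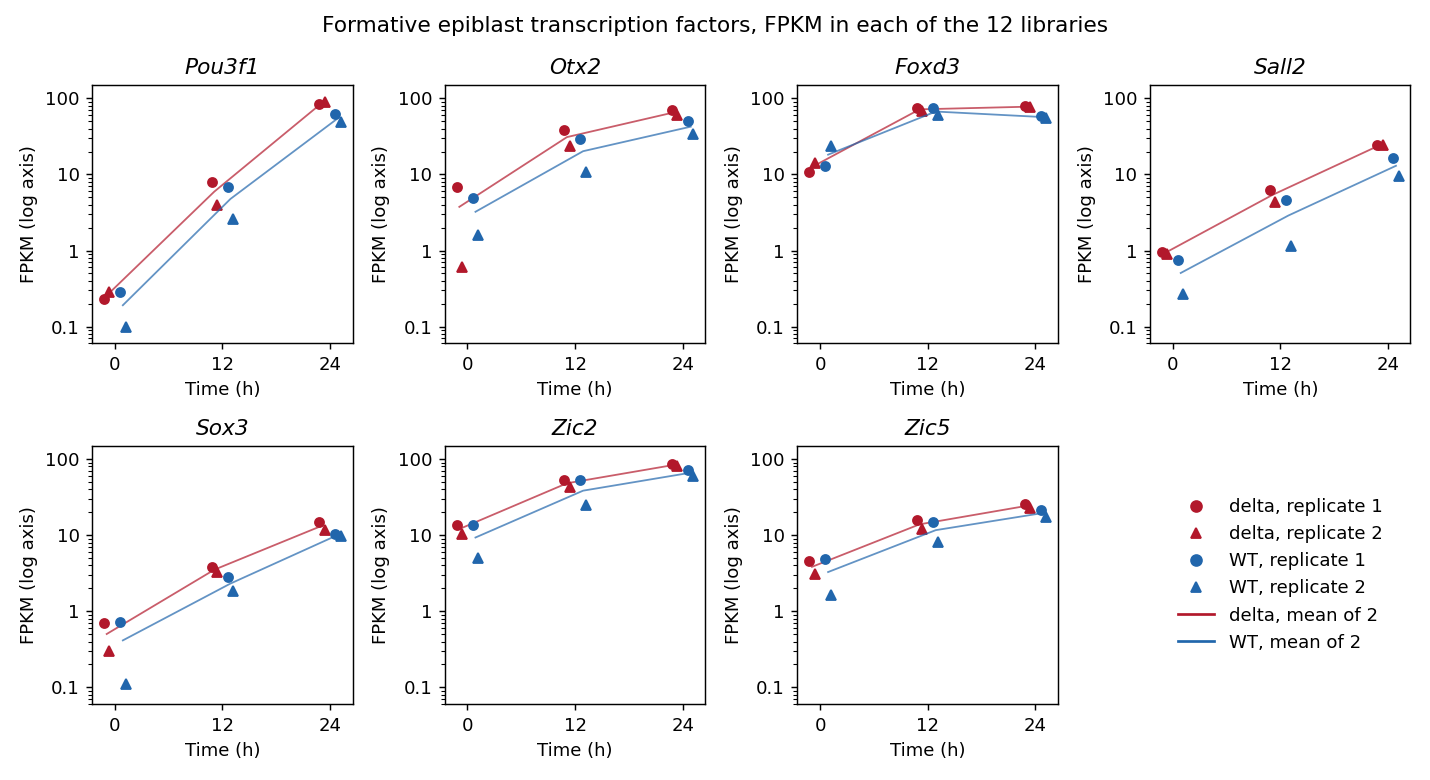
FPKM (log axis) against time (h) for each factor in each of the 12 libraries. Red marks delta and blue WT, circles mark replicate 1 and triangles replicate 2, and lines join the means of 2 libraries. Pou3f1 climbs from below 0.3 FPKM at 0 h to between 48.2 and 89.1 FPKM at 24 h, and Foxd3 is level from 12 h.

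**Figure D2:**
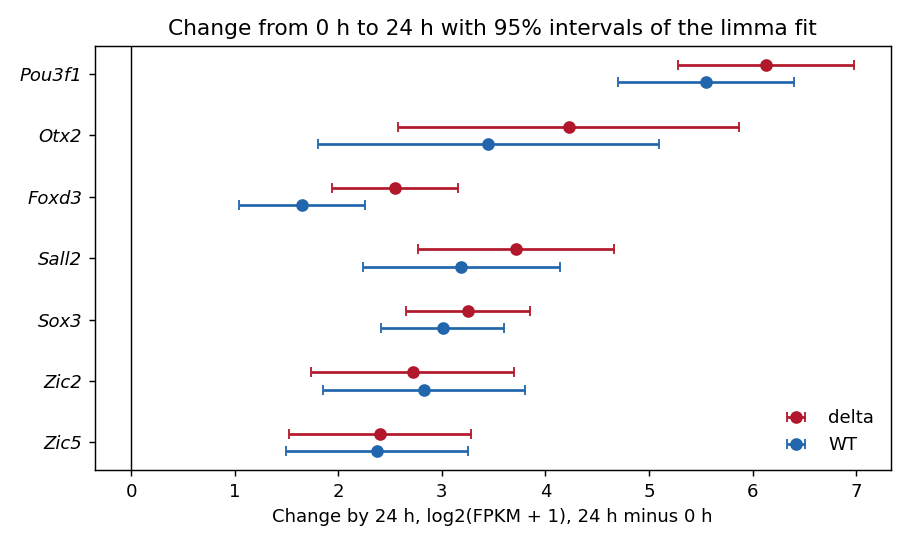
Change from 0 h to 24 h on the log2(FPKM + 1) scale for each factor in delta and WT cells. Points are the fitted differences and bars their 95% intervals from the limma fit. All 14 changes are above 0, from 1.65 for Foxd3 in WT to 6.13 for Pou3f1 in delta.

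At 12 h the factors had risen in delta cells and fewer rises passed the test in WT cells. All 7 were called as higher at 12 h than at 0 h in delta, where 3.55% of tested genes were, and 4 of 7 in WT, where 2.13% were (limma). The 4 in WT were Foxd3 (1.88 ± 0.27, adjusted p = 0.0061), Pou3f1 (2.17 ± 0.38, adjusted p = 0.014), Sox3 (1.25 ± 0.26, adjusted p = 0.033) and Zic2 (1.97 ± 0.43, adjusted p = 0.038). Otx2 (2.29 ± 0.73, adjusted p = 0.14), Zic5 (1.62 ± 0.39, adjusted p = 0.056) and Sall2 (1.23 ± 0.42, adjusted p = 0.17) did not pass in WT. With replicate number as a block, Otx2 (adjusted p = 0.017) and Zic5 (0.0073) passed too and Sall2 (0.053) did not, which makes 6 of 7, against 3.67% of tested genes. In delta cells the changes ran from 1.60 ± 0.26 for Sox3 to 3.13 ± 0.73 for Otx2, with adjusted p from 0.0013 (Foxd3) to 0.043 (Sall2). The difference between genotypes in the change from 0 h to 12 h was called for 0 of the 7 and for 0% of tested genes (limma, with or without the block), and 0 of the 7 had an unadjusted p under 0.05, against 0.615%.

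The 12 h counts depended on single libraries. In delta the count of 7 fell to 1 or 2 when replicate 1 or 2 of delta 12 h was left out, to 3 without either library of delta or WT at 24 h and to 4 without delta 0 h replicate 1. In WT the count of 4 fell to 0 without WT 12 h replicate 1, to 1 without WT 0 h replicate 2 and to 2 without either delta library of 12 h or any library of 24 h. Foxd3 was the only factor called in delta cells without each library in turn.

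From 12 h to 24 h, Pou3f1 and Sox3 were the factors that went on rising by the test in both genotypes. These 2 of 7 were called in delta, against 0.758% of tested genes, and in WT, against 0.25%. Pou3f1 rose by a further 3.73 ± 0.38 in delta and 3.38 ± 0.38 in WT (limma adjusted p = 0.0037 and 0.011). Sox3 rose by a further 1.66 ± 0.26 in delta and 1.76 ± 0.26 in WT (adjusted p = 0.021 and 0.041). Sall2, at 2.01 ± 0.42 in delta and 1.96 ± 0.42 in WT, passed with the replicate block (limma adjusted p = 0.015 and 0.029) and not without it (0.062 and 0.11). With the block 3 of 7 were called, against 1.29% of tested genes in delta and 0.665% in WT. The count in WT fell to 0 without WT 12 h replicate 2 or either WT 24 h library, and to 1 without WT 12 h replicate 1 or any delta library of 12 or 24 h. The count in delta fell to 0 without delta 24 h replicate 1, and to 1 without delta 24 h replicate 2 or either delta 12 h library.

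The other 4 factors did not pass between 12 and 24 h. Otx2 differed by 1.09 ± 0.73 in delta and 1.16 ± 0.73 in WT, Zic2 by 0.80 ± 0.43 and 0.86 ± 0.43, and Zic5 by 0.78 ± 0.39 and 0.75 ± 0.39. Foxd3 differed by 0.12 ± 0.27 in delta (95% interval −0.49 to 0.72) and by −0.23 ± 0.27 in WT (−0.84 to 0.38). In single libraries, all 7 factors in delta stood higher at 24 h than at 12 h and higher at 12 h than at 0 h without overlap, as did 7.56% of tested genes. In WT this held for the 6 factors other than Foxd3, against 5.71% of tested genes.

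Set against its own 24 h level, each factor reached a different share by 12 h. Between libraries of the same genotype and number, Pou3f1 stood at 4.44% to 11.2% of its 24 h FPKM, Sall2 at 12.1% to 28.1% and Sox3 at 18.8% to 28.0%. Otx2 stood at 31.9% to 58.2%, Zic2 at 41.2% to 71.9% and Zic5 at 46.5% to 69.9%. Foxd3 stood at 89.4% to 128%. By this share Pou3f1 was lowest and Foxd3 highest. The ranges of Pou3f1, of Sall2 with Sox3, of Otx2 with the Zic pair and of Foxd3 did not overlap. The share depends on the size of the whole rise as well as on its timing. By group means, Pou3f1 at 0 h stood at 0.294% of its 24 h level in delta and 0.347% in WT. Foxd3 stood at 16.1% and 32.1%. A low share is thus no sign of a late start. Mean Pou3f1 went from 0.256 FPKM at 0 h to 5.95 FPKM at 12 h in delta, and from 0.191 to 4.77 FPKM in WT. Among all genes called as rising by 24 h, the median share at 12 h was 68.9% in delta (1060 genes) and 63.4% in WT (737 genes). From group means, 2.26% of those genes in delta and 2.71% in WT stood below Pou3f1, and 78.0% in delta and 92.5% in WT stood below Foxd3. These shares use the 24 h libraries that also chose the rising genes, so they describe the course and carry no test.

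**Figure D3:**
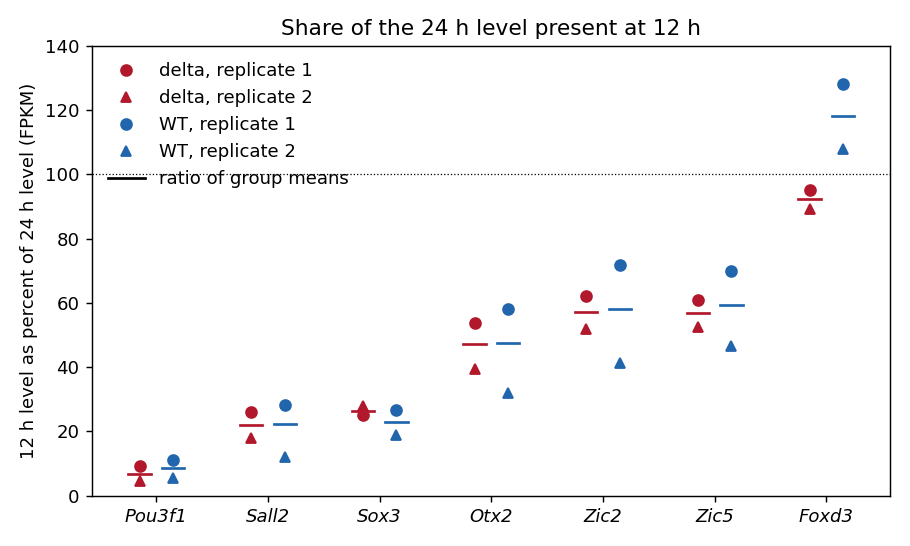
FPKM at 12 h as a percentage of FPKM at 24 h for each factor, by genotype, with 1 point for each pair of libraries of the same replicate number. The dotted line marks 100%. Pou3f1 lies lowest, at 4.44% to 11.2%, and Foxd3 highest, at 89.4% to 128%.

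The order of levels changed with time. FPKM is per length, so the genes can be set side by side as far as the lengths used hold. For Otx2 the FPKM values implied 3397 bases of exon, against 4221 in GENCODE M21. For the other factors they fitted the annotated length. The longer length would give Otx2 a lower FPKM. At 0 h Foxd3 and Zic2 were the most abundant in both genotypes, with means of 12.5 and 12.0 FPKM in delta and 18.2 and 9.32 in WT, and Pou3f1 the least, at 0.256 and 0.191 FPKM. Foxd3 and Zic2 overlapped in their libraries at 0 h, as did Zic5 and Otx2. At 12 h Foxd3 led in both genotypes, at 71.6 FPKM in delta and 67.1 FPKM in WT, and did not overlap Zic2. By 24 h Pou3f1 (87.1 FPKM) and Zic2 (84.1 FPKM) overlapped at the top in delta, followed without overlap by Foxd3 (77.6 FPKM) and Otx2 (65.7 FPKM). In WT at 24 h Zic2 had the highest mean (66.2 FPKM) and overlapped Pou3f1 (55.0 FPKM) and not Foxd3 (56.7 FPKM), while Foxd3 overlapped Pou3f1, and Pou3f1 overlapped Otx2 (42.4 FPKM). Sox3 had the lowest mean of the 7 at 12 and 24 h, at 3.52 and 13.3 FPKM in delta and 2.31 and 10.1 FPKM in WT. In WT its libraries overlapped those of Sall2 at both times.

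Delta and WT cells were compared at each time to ask whether the factors differ in cells that lack the Tcf15 regulatory region. At 24 h all 7 factors stood higher in both delta libraries than in both WT libraries, a separation that 14.3% of all tested genes showed in this direction. Ratios of the group means ran from 1.24 (Zic5) to 1.87 (Sall2). On the log2 scale the differences of delta minus WT were 0.90 ± 0.42 for Sall2, 0.66 ± 0.38 for Pou3f1, 0.64 ± 0.73 for Otx2, 0.45 ± 0.27 for Foxd3, 0.36 ± 0.26 for Sox3, 0.35 ± 0.43 for Zic2 and 0.31 ± 0.39 for Zic5. Their median was 0.45, against 0.0039 over all tested genes. None of the 7 was called (limma adjusted p = 1 for each, with or without the replicate block), against 0.00715% of tested genes in either direction, and 0 had an unadjusted p under 0.05, against 0.744% of tested genes on the higher side. With the block 1 of 7, Sall2, had an unadjusted p under 0.05 (0.020), against 1.19% on the higher side. Every 95% interval included 0, the widest being that of Otx2 (−1.004 to 2.28) and the narrowest that of Sox3 (−0.24 to 0.95). The 7 values come from the same 4 libraries and are not independent of each other. Without WT 24 h replicate 2 the differences were 0.54 for Sall2, 0.36 for Otx2, 0.21 for Zic2 and 0.16 for Zic5, and without delta 24 h replicate 1 that of Sox3 was 0.19.

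At 12 h and 0 h the libraries overlapped more. At 12 h Sox3 was the 1 factor of 7 whose delta libraries both stood above both WT libraries, against 16.8% of tested genes, and at 0 h Sall2 was, against 6.52%. Differences at 12 h ran from 0.10 ± 0.27 (Foxd3) to 0.85 ± 0.42 (Sall2). None of the 7 was called at 12 h or at 0 h (limma adjusted p = 1), against 0.0143% and 0.00715% of tested genes. At an unadjusted p under 0.05 the count was 0 of 7 at both times, against 0.887% of tested genes at 12 h and 2.02% at 0 h. With the replicate block it was 2 of 7 at 12 h (Sall2 and Sox3), against 1.2% of tested genes on the higher side. At 0 h it was 0 of 7 with the block, against 3.61% of tested genes in either direction. Without WT 12 h replicate 2, the library with the lowest value of all 7 factors at 12 h, the differences of Pou3f1, Foxd3, Zic2 and Zic5 turned to −0.25, −0.057, −0.13 and −0.12, and that of Pou3f1 turned to −0.11 without delta 12 h replicate 1.

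Within libraries of the same replicate number, delta was the higher one in 14 of 14 comparisons of the 7 factors at 24 h, in 14 of 14 at 12 h and in 8 of 14 at 0 h. Delta was thus the higher library of both pairs for 7 of 7 factors at 24 h, 7 of 7 at 12 h and 2 of 7 at 0 h, against 28.2%, 28.9% and 23.3% of tested genes. The sizes were unequal. At 12 h the replicate 1 pairs were close for Foxd3 (75.5 FPKM in delta and 74.5 in WT), Zic2 (53.7 and 52.3) and Zic5 (15.7 and 15.1), and the replicate 2 pairs lay further apart, as for Zic2 (42.5 and 24.6). Sall2 and Zic2 were higher in delta in all 6 pairs, as were 6.84% of tested genes. Averaged over times the difference was 0.71 ± 0.24 for Sall2, with an unadjusted p of 0.017 and a limma adjusted p of 1.00 (0.43 with the replicate block), and the other 6 ran from 0.03 ± 0.16 (Foxd3) to 0.40 ± 0.42 (Otx2). Sall2 was thus the 1 factor of 7 under an unadjusted p of 0.05, against 2.25% of tested genes on the higher side. With the replicate block the unadjusted count was 3 of 7 (Sall2, Sox3 and Zic2), against 4.36% on the higher side. By the limma adjusted p 0 of 7 were called, with or without the block, against 0.0143% of tested genes.

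Part of chromosome 14 stood lower in the WT libraries of replicate 2, and Otx2 lies at its edge and Sall2 within it. Over the 33 tested genes between Otx2 and Sall2, the median difference of replicate 2 minus replicate 1 in WT was −0.72 at 0 h, −0.61 at 12 h and −0.45 at 24 h on the log2 scale, against −0.30, −0.01 and 0.03 in delta. Over the 246 tested genes from 50 to 80 Mb it was −0.34, −0.48 and −0.45 in WT, and over the 56 genes from 80 Mb to the end, where Zic2 and Zic5 lie, −0.08, −0.07 and 0.01. At 24 h Sall2 differed between delta and WT by 0.53 in replicate 1 and 1.26 in replicate 2, while the 116 tested genes within 5 Mb of it had medians of 0.04 and 0.55. For Otx2 the differences were 0.48 and 0.80, with local medians of 0.06 and 0.34 over 67 genes. The part of this segment in the differences of Otx2 and Sall2 was not tested. Around the other 5 factors the local medians at 24 h lay between −0.02 and 0.05 in both replicates. Without the 3 WT libraries of replicate 2, the difference averaged over times of Sall2 was 0.28, and those of Otx2, Zic2 and Zic5 were −0.11, −0.031 and −0.088. Lower values in this setting were not confined to chromosome 14. The difference of Pou3f1 went from 0.35 to 0.069 and that of Sox3 from 0.31 to 0.12, while that of Foxd3 did not fall.

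**Figure D4:**
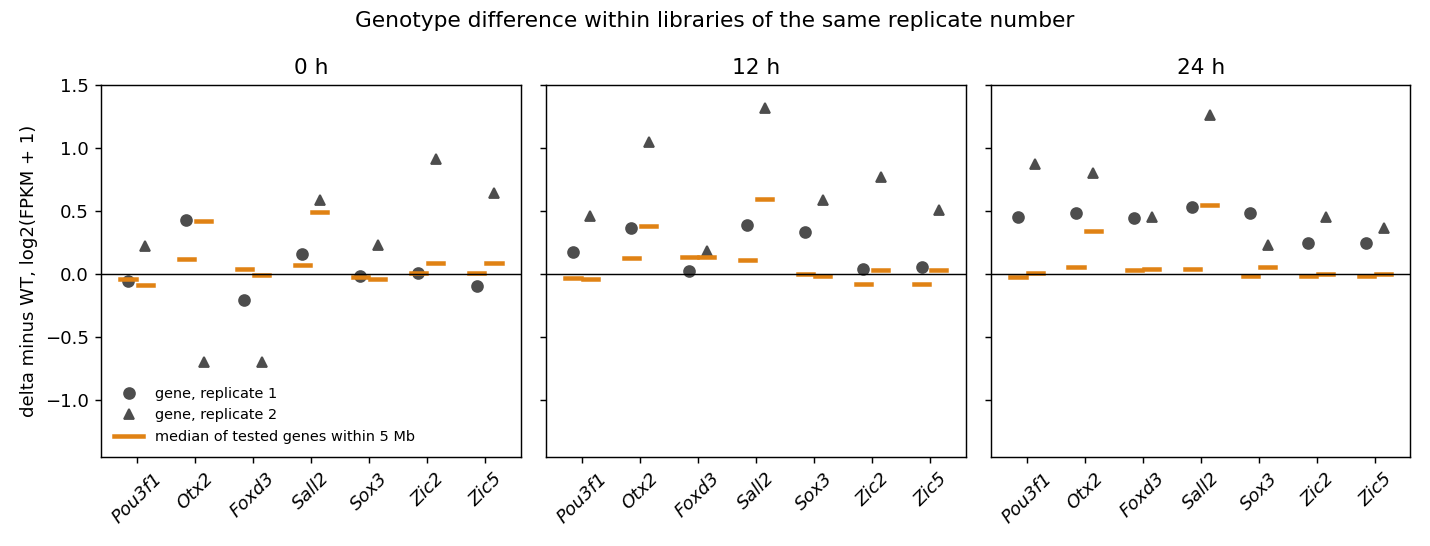
Difference of delta minus WT, log2(FPKM + 1), within libraries of the same replicate number at 0, 12 and 24 h. Circles are replicate 1, triangles replicate 2, and orange bars the median of the tested genes within 5 Mb of each factor. All 14 points of 24 h are above 0, and the local bars of replicate 2 rise above 0 around Otx2 and Sall2.

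The change from 0 h to 24 h was compared between the genotypes directly. The difference of the changes was largest for Foxd3, at 0.90 ± 0.38, with an unadjusted p of 0.042 and a limma adjusted p of 1. Foxd3 was lower in delta at 0 h (12.5 and 18.2 FPKM on average in delta and WT) and higher at 24 h (77.6 and 56.7 FPKM), so both ends contribute to it. Without WT 0 h replicate 2 the value of Foxd3 was 0.48. For Pou3f1 it was 0.58 ± 0.53, and 0.052 with voom weights. None of the 7 was called, as was none (0%) of the tested genes, and 1 had an unadjusted p under 0.05, against 0.436% of tested genes on the higher side.

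Across the 12 libraries Zic2 and Zic5 followed each other most closely (Pearson r of log2(FPKM + 1) = 0.998), and Foxd3 followed the other 6 least (r from 0.753 to 0.838). Pou3f1, Sall2 and Sox3 formed a close set, with r of 0.976 to 0.987. The libraries share times, depth and replicate numbers, so these coefficients describe the courses and carry no p-value. Among 7919 other genes, those most like Pou3f1 were Arl4c (0.995), Pcdh1 (0.994) and Cdk5r2 (0.991). Cdk5r2, which encodes an activator of the kinase Cdk5, was also among the 3 most like Sox3 (0.993) and Sall2 (0.988). Sall2 was followed by Tmem63a (0.991) and by Dnmt3a, a de novo DNA methyltransferase gene (0.988). Most like Otx2 were Hells (0.994), a chromatin remodeller gene, Emb (0.983) and Lin28a (0.979), and most like Foxd3 were Zfp281 (0.983), a zinc finger factor gene, Fam122a (0.980) and Knop1 (0.980). Fzd7, a WNT receptor gene, came first for both Zic2 (0.987) and Zic5 (0.993).

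Paralogues of the factors had a median change near that of all tested genes. Of 25 genes of the same families 12 were tested, and their median change by 24 h was 0.01 in delta and 0.09 in WT. Sall1 was 49.2 FPKM in delta and 45.1 in WT at 24 h (changes of 1.22 and 1.09, not called), and Sall4, a stem cell factor, 38.3 and 38.4 FPKM. Sox2, of the same subgroup as Sox3, held 219 FPKM in delta and 231 FPKM in WT at 24 h, and Sox1, another member and a neural marker, 0.909 and 1.23 FPKM. Pou2f3 differed by −1.81 in delta and −1.72 in WT (limma adjusted p = 0.065 and 0.096). Pou2f1, Pou6f1, Sall3, Pou4f1 and Pou4f2 were below 11 FPKM in every group mean and were not called at 24 h against 0 h. Sall3 averaged 10.1 FPKM at 12 h and fell to 2.70 FPKM at 24 h in delta (−1.59 between these times, limma adjusted p = 0.017), where 0.601% of tested genes fell, a call lost without any 1 delta library of 12 or 24 h. The nearest relatives of Pou3f1, Pou3f2 and Pou3f3, stayed below 0.3 FPKM on average in every group.

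Other formative and early primed epiblast genes rose beside the factors. Of 21 such genes 20 were tested, and 16 rose in delta and 15 in WT by 24 h, with median changes of 2.78 and 2.58, against −0.05 and −0.03 over all tested genes. Of all tested genes 7.58% in delta and 5.27% in WT were called as higher. The list holds Tcf15, the target of the deletion. Fgf5, an FGF ligand and epiblast marker, stood at 21.7 FPKM in delta and 9.78 FPKM in WT at 24 h (changes of 4.36 and 3.31). Pim2, a kinase gene, changed by 3.88 and 3.45, Grhl2, a factor of epithelial genes, by 3.53 and 3.22, and Fgf15 by 3.73 and 3.17. Sox4 changed by 3.03 and 2.99. Between delta and WT at 24 h the list's median difference was 0.06, beside the median of 0.45 of the 7 factors. Of the 20 genes 0 were called, against 0.00715% of tested genes.

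Naive pluripotency factors moved the other way. Of 14 such factors all were tested, and 11 fell and 1 rose in delta and 10 fell and 1 rose in WT by 24 h, with median changes of −2.46 and −2.002 (limma). Of all tested genes 7.8% in delta and 4.94% in WT were called as lower. Klf2 changed by −2.86 in delta and −2.33 in WT, Nanog by −3.30 and −2.21 and Tfap2c by −3.34 and −3.34. Nr5a2 changed by −2.32 in delta and −1.90 in WT, and Tcl1 by −2.32 and −1.77. Nr0b1 was the riser in both. At 24 h all 14 had a negative difference of delta minus WT, as had 48.6% of all tested genes, with a median of −0.49. By limma 0 of 14 were called, against 0.00715% of tested genes. Nanog averaged 32.3 FPKM in delta and 65.9 FPKM in WT at that time. In the same contrast the 7 formative factors were all above 0, as were 51% of all tested genes, and the 2 lists share those 4 libraries.

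Most markers of the nervous system and the neural crest, in which the factors act later, were below the filter. Of 14 neural markers 3 were tested, Sox1, Nes and En2, and En2 rose in delta (1.10, limma adjusted p = 0.047), a call lost without any 1 library of 12 or 24 h or without delta 0 h replicate 1, and stood at 0.63 in WT (adjusted p = 0.27). Pax6, a neural progenitor gene, was at most 0.179 FPKM in any group mean. Of 9 neural crest markers 2 were tested, Tfap2a and Twist1, and Tfap2a fell in WT (−1.74, limma adjusted p = 0.033, lost without any 1 library of 12 or 24 h or without WT 0 h replicate 2), while the crest gene Sox10 was at most 0.0630 FPKM in group means. Among 8 primitive streak markers 3 were tested and 2 fell in both genotypes, T (−4.00 in each) and Gsc (−1.64 in delta and −2.49 in WT). At 0 h the 8 summed to 10.4 and 45.8 FPKM in delta and 18.3 and 31.3 FPKM in WT. At 24 h they summed to 1.83 to 2.31 FPKM. The delta call of Gsc was lost without any 1 delta library other than replicate 1 of 0 h. Of 8 primitive endoderm markers 0 passed the filter. Of 9 fibroblast markers 6 were tested, and their summed level was 21.7, 49.0 and 43.3 FPKM in the WT replicate 1 libraries at 0, 12 and 24 h, against 1.89 to 5.76 FPKM in WT replicate 2 and 2.74 to 7.01 FPKM in delta. The part of these markers in the differences between delta and WT was not tested.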

How the data were processed

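Gene expression was taken as FPKM values in the authors' deposited table of 47729 genes. Per the submitters' processing notes, cutadapt, STAR 2.5.2b, featureCounts 1.5.1, edgeR 3.16.5 and build mm10 were used, with no role or order given. Per the labels, mRNA was selected with oligo-dT beads and libraries made with the NEBNext Ultra II kit.

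Low FPKM values stepped by whole reads (tolerance 0.01 reads). With the annotated length, reads were whole for 22964 of the 28657 genes above 0. For 5692 more, Otx2 among them, lengths were tried until the reads were whole, which genes of few reads meet easily. Together these were 99.997% of the genes above 0, and their reads served for depth and an alternative fit. The 13981 genes that reached 1 FPKM in 2 or more libraries entered 1 limma 3.58.1 model (R 4.3.3) of 6 group means on log2(FPKM + 1), with a mean-variance trend and no replicate block. The pseudocount makes changes of low genes look smaller. The 2-sided p-values were adjusted over all tested genes by Benjamini-Hochberg and called under 0.05. SE is that of the model. The 12 contrasts share libraries: those against 0 h share the 0 h samples. Alternatives changed the pseudocount, filter, trend, scaling (quantile), weights (voom on the recovered reads, scaled by the library sizes that the FPKM imply in place of the TMM scaling planned), block and libraries kept.

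Replicate numbers come from the titles. Deviations of same-numbered delta and WT libraries correlated at 0.70, 0.28 and 0.37 at 0, 12 and 24 h, and those of times within a genotype at 0.26 to 0.46, so the numbers were read as pairing the samples in every contrast used. The lowest of all 15 group pairs, delta at 0 h with WT at 12 h, was −0.07. Both of these groups enter the average over times and the genotype difference in the change from 0 h to 12 h. The main fit does not use the pairing. The blocked value is printed where it changes a call.

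The 7 genes, the gene lists and the tests were chosen with earlier results of these data known. Besides the 7 genes, the text names up to 5 genes per list with the smallest p in WT at 24 h against 0 h, family paralogues of at least 1 FPKM in a group mean, and the 3 genes with the highest Pearson r with each factor among genes of at least 5 FPKM in a group mean. Nr0b1, Sox10, Pax6, Pou3f2, Pou3f3 and the fall of Sall3 were named after their values were seen. A result that these rules would name is not reported here. Gene models were those of GENCODE M21, in which 47310 identifiers were found. Promoter windows came from RefSeq (GRCm38.p6). The fit was tested on simulated data for delta against WT at 24 h. Of 100 genes given a log2 change of 1 it recovered 28, and of 100 given a change of 2 it recovered 68, with 4 false calls each. A factor that was not called may thus still differ. Figures were drawn with matplotlib 3.10.9.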

Additional observations from a re-analysis of the deposited data

How the results depend on the processing

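The count of factors called between delta and WT was 0 at each time, averaged over times and in both comparisons of changes, under all 22 alternatives. By 24 h against 0 h, 7 factors were called in delta without any single library, and 5 to 7 in WT. Leaving out single libraries gave 1 to 7 for delta at 12 h against 0 h, 0 to 6 for WT at 12 h against 0 h, 0 to 3 for delta at 24 h against 12 h and 0 to 2 for WT at 24 h against 12 h. With the replicate block, the count was 6 for WT at 12 h against 0 h, and 3 at 24 h against 12 h in both delta and WT, and no other call changed. With no filter on low values, which tests more genes, the count was 3 for delta and 2 for WT at 12 h against 0 h, and 1 for WT at 24 h against 12 h. At 24 h against 12 h, a pseudocount of 0.1 gave 1 in delta and 0 in WT, voom weights gave 1 in each, and a filter of 5 FPKM gave 1 in WT. Without the 3 WT libraries of replicate 1, or without those of replicate 2, which leaves 1 WT library a group assumed to vary like the others, the count was 0 in WT at 12 h against 0 h and at 24 h against 12 h, and 1 in delta at 24 h against 12 h. For these settings the cause was not tested.

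Of the values of single genes, 17 reversed their sign, all of them differences of delta minus WT that were not called. At 12 h, leaving out WT 12 h replicate 2, alone or with the other WT libraries of replicate 2, gave −0.25 for Pou3f1, −0.057 for Foxd3, −0.13 for Zic2 and −0.12 for Zic5, and leaving out delta 12 h replicate 1 gave −0.11 for Pou3f1. Averaged over times, leaving out the 3 WT libraries of replicate 2 gave −0.11 for Otx2, −0.031 for Zic2 and −0.088 for Zic5. For Foxd3 the average was −0.027 without replicate 2 of delta at 0 h, −0.11 when replicate 1 of WT at 0 h was left out, −0.022 without WT 12 h replicate 2, −0.046 without the 3 WT libraries of replicate 1 and −0.052 without both 0 h libraries of replicate 1, a setting chosen after seeing the data. Without single libraries or replicate sets, the highest values of these differences at 12 h were 0.89 for Pou3f1, 0.26 for Foxd3, 0.93 for Zic2 and 0.69 for Zic5, and averaged over times 0.92 for Otx2, 0.17 for Foxd3, 0.84 for Zic2 and 0.66 for Zic5. With 2 libraries a group, no library could be tested as standing apart from its group. At 0 h, Pou3f1 and Sox3 rest on as few as 5 and 3 reads in a library, so the sizes of their rises depend on the pseudocount.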
